A study of Mus musculus with 768 samples.

Results

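All 377 muscle stem cells of the series with a column in the RNA count table were divided into groups chosen by their own reads of 1 gene, *Myod1*. The 182 cells with at least 1 read formed one group and the 195 cells with 0 reads the other. The cells were sorted for high GFP from the tibialis anterior, a muscle of the lower leg, of 4 young (2 months in the sample labels) and 2 old (24 months) *Tg:Pax7-nGFP* mice, in which a *Pax7* transgene drives nuclear GFP. No mouse was treated, and all carried the same transgene, so that both groups hold cells already selected for strong *Pax7* expression. Their RNA was measured as full-length cDNA alongside DNA methylation, and the deposited values are raw read counts per gene. A cell had 101755 to 626142 reads on genes (median 272816), with no molecular identifiers. Each mouse held cells of both groups, so each mouse served as its own control and the 6 mice were the replicates.

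*Myod1* encodes a basic helix-loop-helix transcription factor that commits cells to the muscle lineage. Quiescent muscle stem cells are marked by the paired-box factor *Pax7*. They are known to transcribe *Myod1* while holding back its protein, in part through RNA-binding proteins that limit the stability or translation of the transcript. When the cells are activated, Myod1 protein accumulates, and the later factor *Myog* and the genes of the contractile apparatus follow. Whether quiescent stem cells with reads of the transcript differ from their neighbours without reads is the question that this comparison addressed. A cell without a read may still have carried the transcript.

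*Myod1* lies on the forward strand of chromosome 7 of GRCm38 (chr7:46376474-46379099) and had 1 row in the table. The median was 240.5 reads (interquartile range 98.0 to 685.5, maximum 5921), or 940 RPM (reads relative to the total on genes in the cell; interquartile range 412 to 2173). Counted in reads, few cells lay just above the threshold of the split. Of the cells with reads, 7 had 1 read, 3 had 2 reads, and 16 in all had fewer than 10, whereas 136 had at least 100. Without molecular identifiers, reads are not counts of transcripts, so this gap in reads does not show a gap in transcripts. In the cells without a read, the limit that a count of 0 allows (3 reads, for counting error only) was 5.00 to 29.4 RPM. That limit does not cover transcripts lost before sequencing, which were not measured. When every cell was reduced to 100000 randomly drawn reads, 5 of the 182 cells lost their only reads of *Myod1* and 177 remained.

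Such a level was high for a gene found in so few of the cells. Another 338 genes were read in a share of the cells within 5 percentage points of that of *Myod1* (48.3%), and 312 of these had an exon length in the GENCODE M21 annotation. Per kilobase of exon, the median level of *Myod1* among the cells with reads of it was 505 RPM (RPKM), and each of the 312 genes was lower. Their medians had an interquartile range of 24.0 to 112 RPKM, and the nearest was *Tspo*, a protein of the outer mitochondrial membrane, at 397 RPKM. These values describe the gene that defined the groups and were not tested.

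**Figure D1:**
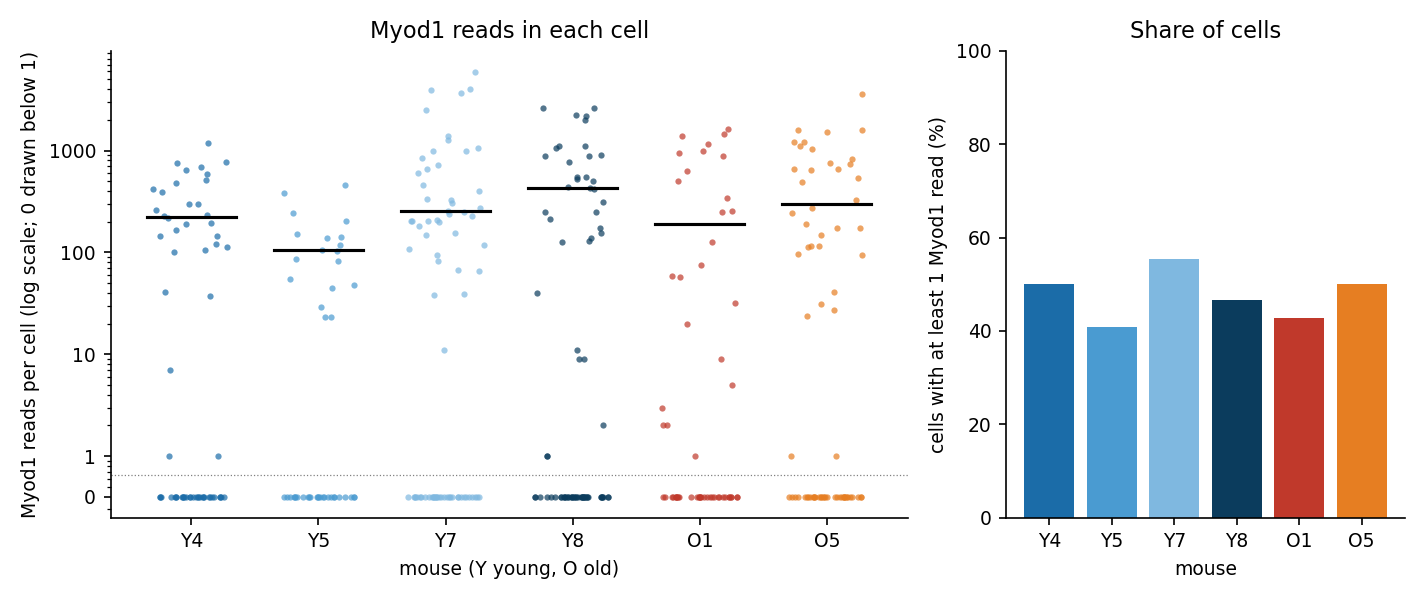
Myod1 reads in each of the 377 cells by mouse (left; 1 point per cell, log axis with 0 drawn below 1, black lines at the median of the cells with reads) and the percentage of cells in each mouse that had any read (right). Points pile up at 0 and above 10 reads with few between, and the shares run from 40.9% (Y5) to 55.4% (Y7).

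Both groups were present at similar shares in all mice. Cells with *Myod1* reads made up 50.0% of the cells of Y4, 40.9% of Y5, 55.4% of Y7 and 46.7% of Y8, the young mice. In the old mice the shares were 42.9% (O1) and 50.0% (O5). The mean was 48.2% ± 6.07 (SD, n = 4) in young and 46.4% ± 5.05 (SD, n = 2) in old mice, and both old mice lay within the young range. Among the cells with reads, the median level ran from 421 RPM in Y5 to 1205 RPM in Y7, with the old mice at 738 (O1) and 1172 RPM (O5).

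Both groups had reads of markers of muscle stem cells, which were summed per mouse and not judged cell by cell. All 9 markers of muscle stem cells were detected, and their summed level per mouse ran from 7171 to 14333 RPM in cells with *Myod1* reads and from 7574 to 13910 RPM in cells without. The sum was higher with *Myod1* reads in 2 of 6 mice (median 10903 against 12151 RPM). The most widely read of the 9 was *Sdc4*, in 376 cells. Of the endothelial markers, *Cdh5*, *Kdr*, *Cldn5*, *Emcn* and *Tie1* had no read in any cell, and the summed level of all 7 was at most 0.591 RPM with and 47.0 RPM without *Myod1* reads. The fibro-adipogenic markers *Pdgfra*, *Lum* and *Pi16* also had no read, although *Dpt* was read in 290 cells; the sum of the list was 245 to 956 RPM with and 312 to 1041 RPM without. Immune markers (8 in the table, *Lyz2* and *Cd3e* at 0) reached at most 27.9 RPM with and 18.3 RPM without, and smooth muscle markers (6, *Myh11* at 0) at most 283 and 304 RPM. The 3 tendon markers (*Tnmd* and *Fmod* at 0) reached at most 35.6 and 20.1 RPM, the 4 glial markers 27.4 and 13.0 RPM, and the 8 markers of mature fibres 49.2 and 14.2 RPM, with *Ckm* and *Mb* at 0. The 4 globin genes had no read in any cell.

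The groups also had similar depth, and cells with *Myod1* reads tended to show more genes. The median number of reads per cell differed by 0.0073 ± 0.148 on the log2 scale (mean ± SD over 6 mice; higher in 3 of 6, exact two-sided sign-flip test, p = 0.906). At 100000 reads per cell and with *Myod1* itself left out, a median of 1901 ± 366 genes was detected in cells with and 1790 ± 288 in cells without *Myod1* reads (SD, n = 6). The difference was −144.5 in Y4 and 373.5, 114, 223.5, 70 and 29.5 genes in Y5, Y7, Y8, O1 and O5. It was thus positive in 5 of 6 mice, with a mean of 111 ± 176 genes, and did not pass the same exact test (p = 0.219; the smallest p that 6 mice allow is 0.03125). The share of reads taken by the 50 most abundant genes was 26.2% ± 3.47 with and 26.8% ± 3.66 without. Within a mouse, the mean Spearman correlation between pairs of cells, over the 500 most variable genes, was 0.221 ± 0.0493 among cells with and 0.212 ± 0.0496 among cells without *Myod1* reads (higher in 4 of 6 mice, exact p = 0.188). One list of 500 genes for all mice, in place of a list per mouse, gave 0.248 ± 0.0150 against 0.235 ± 0.00978, higher in 6 of 6 mice at the smallest p (0.03125). With the lists per mouse, the difference among cells paired for the number of genes detected was 0.000523 ± 0.0169 (exact p = 1.0). The single list was not applied to the paired cells.

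**Figure D2:**
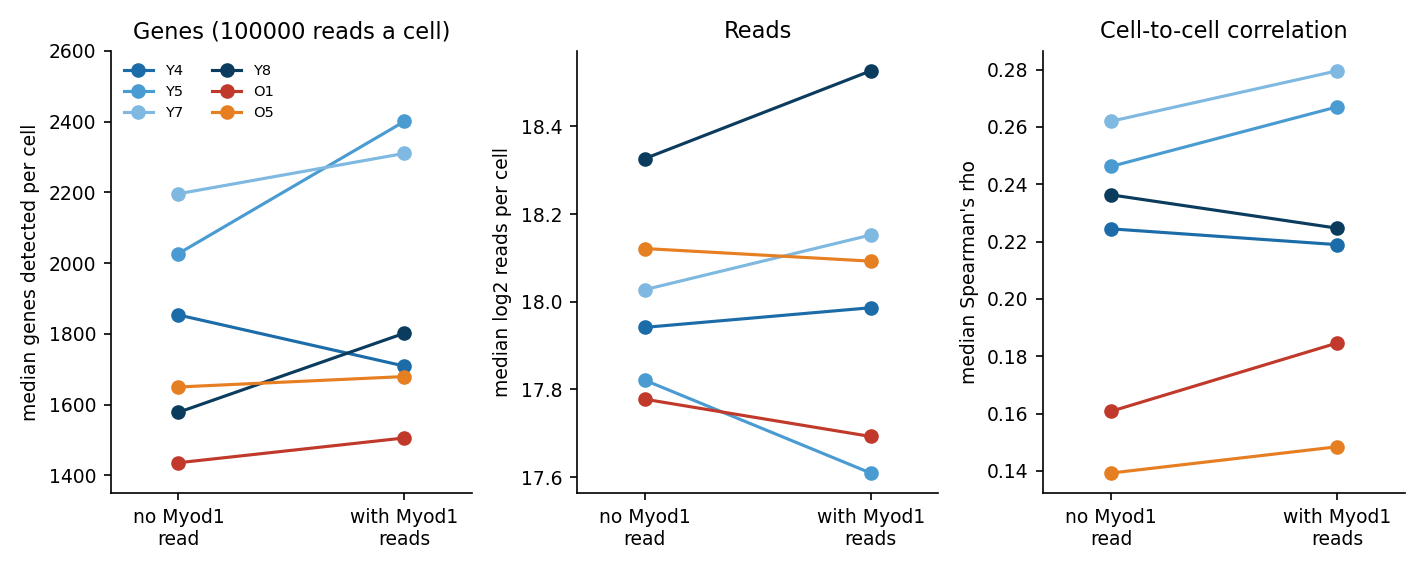
Values per mouse in cells without (left points) and with (right points) Myod1 reads, 1 line per mouse. The panels show median genes detected at 100000 reads per cell, median log2 reads per cell, and Spearman's rho between cells of the same group. The rho is the mean over pairs of cells, although its axis is labelled as a median. Lines slope up for genes detected in 5 of 6 mice, in both directions for reads, and up in 4 of 6 for the correlation, while mice differ more from each other than the groups do.

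Neither edgeR on summed counts nor limma on shares of cells called a gene between the groups. Counts were added up within each group of each mouse, and 9817 genes were compared within mice with edgeR's quasi-likelihood test. The number of genes at a Benjamini-Hochberg adjusted p under 0.05 was 0 (0.0%), and 211 (2.15%) had an unadjusted p under 0.05, 96 of them higher and 115 lower in cells with *Myod1* reads. The 95% interval of the log2 fold change had a median half-width of 2.48 over all genes, and of 1.01 over the 3193 genes read in at least 20% of the cells. In counts simulated with the median spread of all 9817 genes, edgeR called none of the genes changed by known folds. The changed genes were drawn from those read in at least 20% of the cells, whose intervals were narrower. The simulation therefore did not measure what edgeR could detect among those genes. Given the width of the intervals, edgeR's count of 0 does not show that the groups are alike. DESeq2 called 130 genes (1.32%), 53 higher and 77 lower. Those genes were read in a median of 4.38% of the cells, and 5 of them were both read in at least 20% of all cells and changed the same way in the 6 mice: *Dctn4* and *Yars* (higher), *Araf*, *Clock* and *Clcn4-2* (lower). Limma on the mean of log2(RPM + 1) per group called 1 gene, *Asb5* (0.0102%). As a second measure, the share of cells in which a gene was read was compared at 100000 reads per cell over 5568 genes. Limma on the arcsine of the square root of the shares called 0 (0.0%), with 340 (6.11%) at an unadjusted p under 0.05, 284 of them higher and 56 lower. The 95% interval of a difference in share had a median half-width of 8.32 percentage points.

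That lean towards higher shares was spread across the genes. Cells with *Myod1* reads had the higher mean share for 3593 of the 5568 genes (64.5%), the median difference was 1.43 percentage points, and 123 genes (2.21%) were higher and 27 (0.485%) lower in all 6 mice. In the 128 pairs of cells matched within each mouse to within 50 genes detected, 51.2% of genes were higher, the median difference was 0.137 points, and the counts in all 6 mice were 28 (0.503%) and 20 (0.359%). Matching on genes detected holds the overall lean near 0 by construction, so its loss in these pairs is not a finding. The shares below are therefore to be read beside 1.43 points, and counts of higher shares in a list beside 64.5%. For some genes the difference in the matched cells is also given. The 95% intervals of differences in share come from limma on the untransformed shares.

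**Figure D3:**
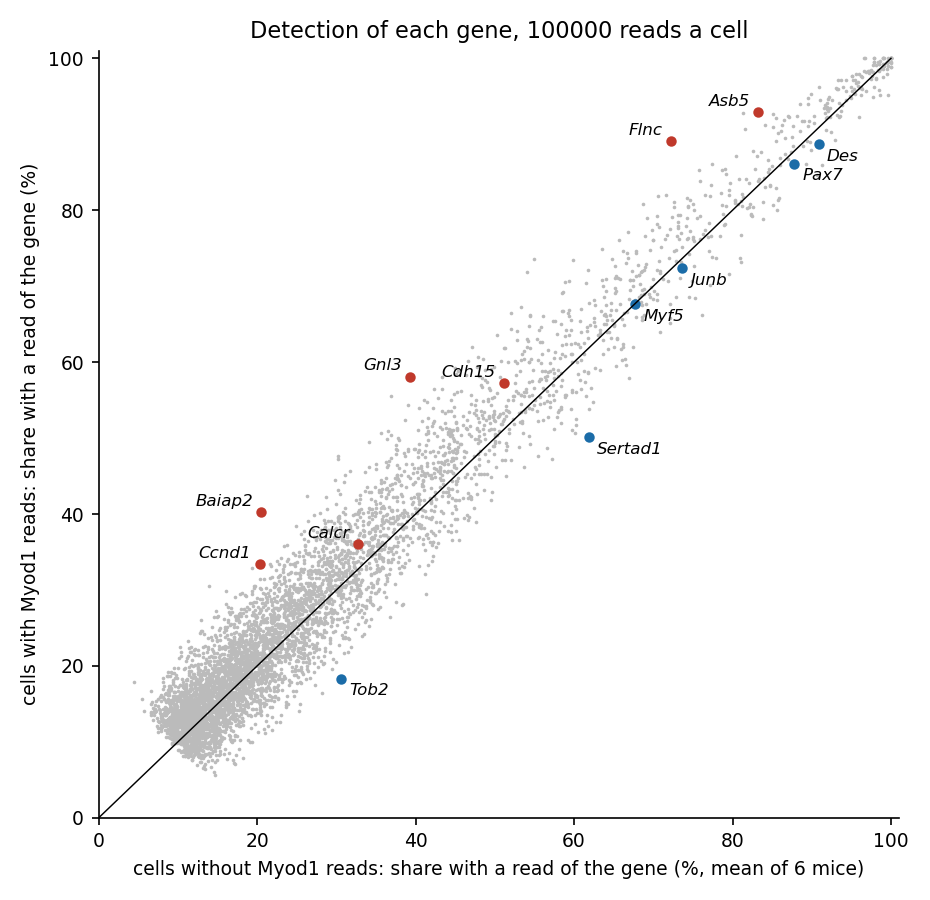
Share of cells in which each of 5568 genes was read at 100000 reads per cell, as the mean of 6 mice, in cells without (x axis) and with (y axis) Myod1 reads. Grey points are genes, the line marks equal shares and labelled genes are ones named in the text; most points lie near the line, with Flnc and Baiap2 above it and Sertad1 and Tob2 below it.

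None of the other regulators of myogenesis was called by edgeR or by limma on the shares. *Pax7* was read in 86.1% ± 10.2 of the cells with *Myod1* reads (lowest 70.8%, median 88.6%, highest 96.7%) and in 87.8% ± 7.55 of the cells without (75%, 89.1% and 97.0%). The difference was −1.67 points (95% interval −6.57 to 3.24), higher in 2 of 6 mice. Its summed level was 694 ± 227 against 910 ± 401 CPM (counts relative to the summed library; SD, n = 6), a log2 fold change of −0.32 (SE 0.20, 95% interval −0.78 to 0.14). *Myf5*, the closest relative of *Myod1* at work in these cells, was read in 67.7% ± 20.7 of the cells with and 67.7% ± 8.62 without, a difference of −0.0266 points (−10.8 to 10.7). Among single cells, without regard to the mouse, 133 had reads of both genes, 49 of *Myod1* alone, 140 of *Myf5* alone and 55 of neither. In O1 *Myf5* was read in 29.2% of the cells with *Myod1* reads against 59.4% of the others, and in Y5 the order was the opposite (88.9% against 69.2%).

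*Myog*, which drives terminal differentiation, had no read in any of the 377 cells, and *Myf6* had reads in 2 cells, both with *Myod1* reads. Of the 31 genes other than *Myod1* on the list of myogenic regulators, 21 could be compared by share. Of these, 11 had a higher and 10 a lower mean share, none was in the same direction in all mice, and their median difference was 0.716 points against 1.43 for all genes. *Msc*, a bHLH repressor that can occupy the sites of Myod1, was read in 32.2% ± 17.2 against 25.0% ± 12.9 of the cells (7.24 points, −1.86 to 16.3; higher in 4 of 6 mice; 2.55 points in the matched cells). *Id3*, an inhibitor that sequesters the partners of bHLH factors, was read in 53.5% ± 17.7 against 58.0% ± 8.53 of the cells. Its summed counts gave a log2 fold change of −0.50 (SE 0.22, unadjusted p = 0.0472, adjusted p = 1.0 with edgeR), lower in 5 of 6 mice. The E proteins with which Myod1 pairs gave intervals that included 0: *Tcf3* 5.40 points (−1.09 to 11.9), *Tcf12* 4.26 (−4.78 to 13.3) and *Tcf4* −0.0935 (−8.29 to 8.10).

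Genes downstream of Myod1 ranged from ones read in most cells to ones with no read. Of the 38 genes in the table on the list of muscle differentiation genes and targets, 25 had a read in any cell and 10 were frequent enough for the comparison by share. The genes without a read included *Tmem8c*, which fuses myoblasts, and the contractile genes *Actc1*, *Myh3*, *Myl1*, *Tnnt2* and *Tnni1*, as well as *Ckm*. Those that could be compared had a median difference of 0.680 points, with 8 higher, 2 lower and none at an unadjusted p under 0.05. *Cdh15*, the muscle cadherin, was read in 57.2% ± 8.18 against 51.2% ± 21.5 of the cells (6.10 points, −6.99 to 19.2), and *Itga7*, the laminin-binding integrin of muscle, in 51.0% against 41.5% (9.45 points, −2.66 to 21.6; 5.04 points in the matched cells). *Des*, the muscle intermediate filament, was read in 88.7% against 90.9%, and *Cdkn1a*, a cell cycle inhibitor that Myod1 can induce, in 57.9% against 57.5%.

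Regulators of mRNA stability and translation, some of which are known to restrain Myod1 in quiescence, were compared next. Of the 16 compared, 14 (87.5%, against 64.5% of all genes) had a higher mean share in cells with *Myod1* reads, none at an unadjusted p under 0.05. The median difference was 2.65 points, against 1.43 for all genes. *Zfp36* (tristetraprolin), which binds AU-rich elements and speeds the decay of its targets, was read in 70.9% against 70.0% of the cells, with a log2 fold change of the summed counts of −0.19 (SE 0.16). *Stau1*, an RNA-binding protein, was read in 53.3% against 51.0%, and *Elavl1*, which stabilises transcripts, in 39.8% against 34.8%. In the matched cells *Zfp36*, *Stau1* and *Elavl1* differed by 4.32, −5.23 and 2.20 points. Across the 18 genes with summed counts, the median log2 fold change was −0.07, against −0.03 for all genes.

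**Figure D4:**
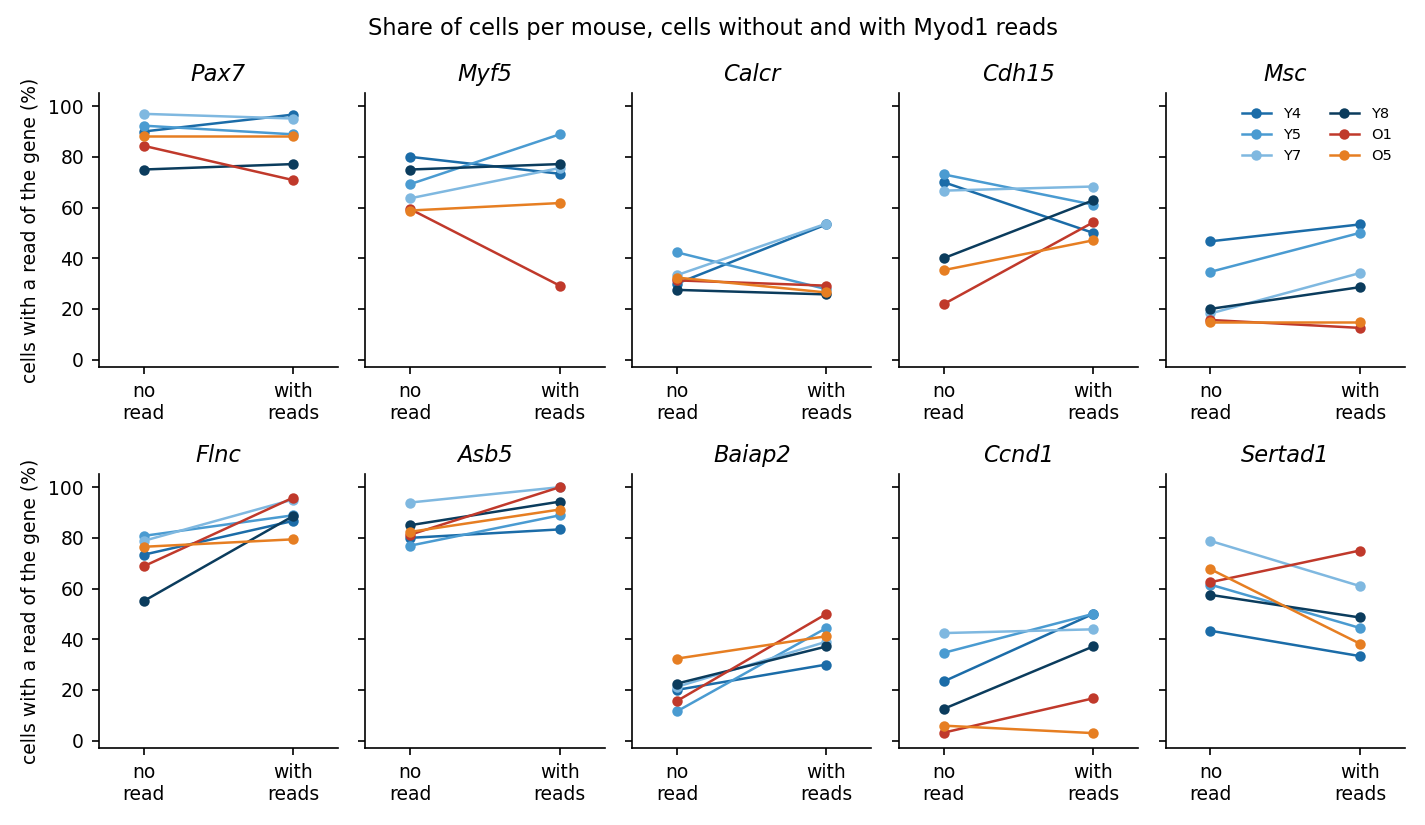
Share of cells with a read of 10 genes at 100000 reads per cell, in cells without and with Myod1 reads, 1 line per mouse (Y young, O old). Lines for Pax7, Myf5, Calcr and Cdh15 cross, whereas those for Flnc, Asb5 and Baiap2 slope up in 6 of 6 mice and those for Sertad1 slope down in 5 of 6.

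Genes of quiescence and the Notch pathway gave small and mixed differences. Among 29 compared, 21 had a higher and 8 a lower mean share, with a median of 2.06 points. *Calcr*, the calcitonin receptor that maintains quiescence, was read in 36.0% ± 13.6 against 32.8% ± 5.08 of the cells, higher in 2 of 6 mice, and *Spry1*, an inhibitor of growth factor signalling, in 35.8% against 34.5%. The Notch receptor *Notch3* (65.8% against 72.1%) and the growth arrest gene *Gas1* (54.8% against 62.4%) were lower in 4 and 5 of 6 mice, with intervals that included 0 and differences of −6.32 and −7.69 points (−3.67 and −4.22 in the matched cells). *Ptpn11*, a phosphatase of growth factor signalling, was higher in 6 of 6 mice, at 39.0% ± 8.85 against 26.5% ± 8.97 (12.6 points, 2.68 to 22.4; adjusted p = 0.783 with limma). In the matched cells its difference was 2.77 points, higher in 3 of 6.

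Cell cycle genes gave differences in both directions, none past the threshold with edgeR or with limma on the shares, and genes of mitosis were rare in both groups. The list had 11 genes to compare, 8 higher and 3 lower, with a median of 6.15 points. *Ccnd1* (cyclin D1) was read in 33.4% ± 19.4 of the cells with *Myod1* reads (lowest 2.94%, median 40.5%, highest 50.0%) and in 20.3% ± 15.9 of the others (3.12%, 17.9% and 42.4%). It was higher in 5 of 6 mice, the exception being O5 with 2.94% against 5.88%. The difference was 13.1 points (3.20 to 23.1; unadjusted p = 0.0149, adjusted p = 0.783 with limma), and 6.86 points in the matched cells. *Odc1*, the first enzyme of polyamine synthesis, gave 86.1% ± 5.15 against 77.4% ± 6.77 (8.73 points, 3.14 to 14.3; 8.83 points in the matched cells), and *Cdk4*, the kinase partner of cyclin D, 51.4% against 43.0%, higher in 6 of 6 mice. In the matched cells *Cdk4* differed by 4.42 points and was higher in 4 of 6. *Ccnd3* (cyclin D3) went the other way, at 23.9% against 33.2% and lower in 5 of 6. *Mki67* and *Top2a*, which mark dividing cells, were each read in 1.33% of all cells and *Ccnb1* in none.

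Genes of the extracellular matrix and adhesion gave differences in both directions, and none passed the threshold with edgeR or with limma on the shares. Across the 36 genes compared, 22 were higher and 14 lower, with a median of 3.40 points. *Col6a2*, a chain of collagen VI, gave 24.4% against 15.8% (8.65 points, 1.05 to 16.2), and *Col3a1*, a chain of fibrillar collagen III, 73.8% against 77.4%.

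The early response and heat shock genes had a median log2 fold change of the summed counts of −0.03 over 35 genes, against −0.03 for all genes, with 1 higher and 2 lower at an unadjusted p under 0.05. *Junb*, a member of the AP-1 factors, was read in 72.4% against 73.7% of the cells, yet its summed level was lower in 6 of 6 mice, at 1252 (median; 1017 to 1955) against 2086 CPM (1548 to 2368), a log2 fold change of −0.55 (SE 0.18, unadjusted p = 0.0128, adjusted p = 1.0 with edgeR). *Egr1* followed it, with 70.9% against 71.3% of the cells and a log2 fold change of −0.68 (SE 0.22, unadjusted p = 0.012, adjusted p = 1.0), lower in 5 of 6 mice. *Fos* gave −0.76 (SE 0.42), also lower in 5 of 6, with a difference in share of −5.97 points (−18.8 to 6.85). Heat shock genes included *Hsph1* with 0.59 (SE 0.24, higher in 5 of 6 mice) and *Hspa1a* with −0.05 (SE 0.35). Over the 33 genes of this list compared by share, the median difference was 1.25 points, below that of all genes.

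Growth factor, p38 and mTOR signalling, by which quiescent cells are alerted, gave 13 of 22 genes with a higher and 9 with a lower share, and a median of 1.23 points. *Met*, the receptor of hepatocyte growth factor, was read in 29.2% ± 5.11 against 18.6% ± 11.0 of the cells (10.6 points, 0.970 to 20.2; 10.3 points in the matched cells), higher in 4 of 6 mice. *Mapk14*, the main p38 kinase, was read in 15.6% against 16.6% and *Mtor* in 13.2% against 16.7%. *Rac1*, a small GTPase, was lower in 4 of 6 mice (53.9% against 61.9%, −8.08 points, −17.6 to 1.49).

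Genes of translation and respiration gave small differences as groups. Of 79 cytosolic ribosomal protein genes, 57 had a higher and 19 a lower share, with a median of 0.904 points and a median log2 fold change of −0.01. Some of them were read in nearly all cells of both groups, which left little room for a difference in share. Examples are *Rpl7* (100% against 99.2%) and *Rpl31* (98.4% against 97.3%). With limma on the shares, 3 of these 79 genes had an unadjusted p under 0.05 and 0 were called. *Rpl5*, 1 of those 3, was read in 100% of the cells with *Myod1* reads in every mouse and in 96.7% ± 2.49 of the others. Respiratory chain and ATP synthase genes (77 compared) had a median of 2.02 points, 51 higher and 26 lower, and spread from *Ndufc2* of complex I (29.5% against 41.3%, −11.8 points, lower in 5 of 6 mice) to *Cox5b* of complex IV (13.3 points). *Uqcrq* of complex III was higher in 6 of 6 mice (70.5% against 58.8%, 11.7 points), and by 6.43 points in the matched cells.

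**Figure D5:**
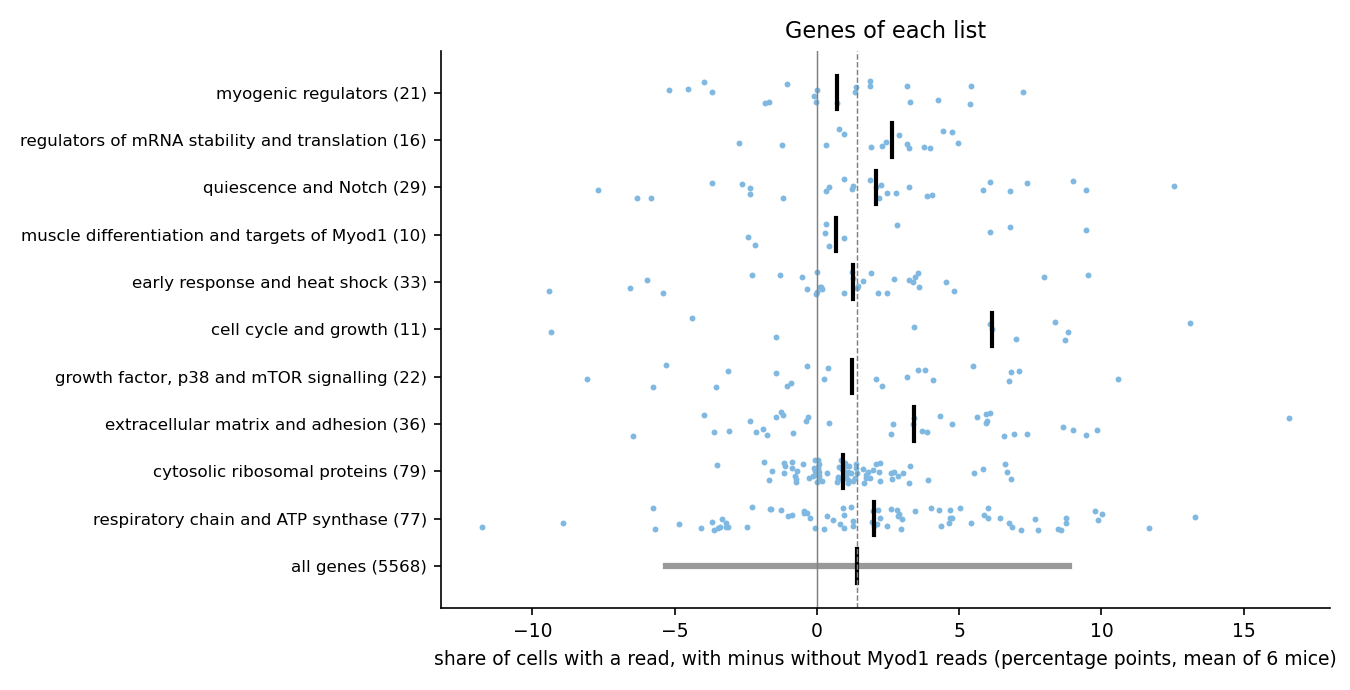
Difference in the share of cells with a read (percentage points, with minus without Myod1 reads, mean of 6 mice) for each gene of 10 lists, with the number compared in brackets. Blue points are genes, black bars are medians, the grey bar spans the 5th to 95th percentile of all 5568 genes and the dashed line marks their median of 1.43 points; the lists' medians run from 0.680 to 6.15 points, and the span of single genes is not a test of a median.

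Among all genes, most of the largest differences in share lay outside these lists, and none passed the threshold (adjusted p = 0.783 or more with limma). *Baiap2*, an adaptor between membranes and actin, was read in 40.3% ± 6.78 against 20.5% ± 7.06 of the cells (19.8 points, 9.60 to 29.9), and the ranges over mice met only between 30% and 32.4%. *Gnl3* (nucleostemin, a nucleolar GTPase of growing cells) gave 58.1% ± 13.8 against 39.3% ± 7.76. *Abhd2*, a hydrolase, gave 71.9% against 54.1%. Others were *Baz1a*, a subunit of chromatin remodellers (17.4 points), *Ilf2*, a double-stranded RNA-binding protein (17.1 points), and *Rnps1*, a splicing factor (16.2 points). Each of these 6 genes was higher in 6 of 6 mice. In the matched cells *Gnl3*, *Ilf2* and *Rnps1* differed by 11.8, 10.3 and 9.64 points and were higher in 5, 5 and 4 of 6 mice, and *Baiap2*, *Abhd2* and *Baz1a* by 14.1, 13.1 and 12.5 points, each higher in 5 of 6.

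*Flnc* had a difference of like size in all cells, in the matched cells and in the cells with most *Myod1* reads. It encodes filamin C, which links actin to the membrane and the Z-disc in muscle, and was read in 89.1% ± 6.03 of the cells with *Myod1* reads (lowest 79.4%, median 88.7%, highest 95.8%) against 72.2% ± 9.42 of the others (55.0%, 74.9% and 80.8%). It was higher in 6 of 6 mice by 16.9 points (9.67 to 24.1; unadjusted p = 0.00055, adjusted p = 0.783 with limma). In the matched cells the difference was 17.5 points and in cells with at least 100 *Myod1* reads 17.3 points, both higher in 6 of 6. Its summed counts were higher in 5 of 6 mice, with a log2 fold change of 0.47 (SE 0.18, unadjusted p = 0.0268, adjusted p = 1.0 with edgeR).

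*Asb5*, the single gene that limma called on mean log2 values, was picked here after its values were seen. It encodes a protein with ankyrin repeats and a SOCS box, and starts at base 54550331 of chromosome 8. It was read in 92.9% ± 6.53 of the cells with *Myod1* reads (lowest 83.3%, median 92.7%, highest 100%) and in 83.2% ± 5.88 of the others (76.9%, 81.8% and 93.9%), higher in 6 of 6 mice by 9.70 points (5.37 to 14.0). The mean log2(RPM + 1) differed by 1.27 (adjusted p = 0.0211), but the summed counts by 0.31 (SE 0.18, adjusted p = 1.0 with edgeR), higher in 4 of 6 mice. The call with limma was lost in the matched cells (adjusted p = 0.972), without O1 (0.258), without Y8 (0.110), in young mice only (0.904), in cells with at least 100 *Myod1* reads (0.460) and without pairing by mouse (1.0).

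Genes with lower shares in the cells with *Myod1* reads were fewer, and none passed the threshold (adjusted p = 0.783 or more with limma). *Tob2*, an antiproliferative relative of the Btg factors, gave the largest difference downwards, at 18.3% against 30.5% (−12.2 points, −22.5 to −1.90; lower in 5 of 6 mice). *Sertad1*, a cofactor of E2F transcription that binds Cdk4, was read in 50.1% ± 15.5 (lowest 33.3%, median 46.5%, highest 75%) against 61.9% ± 11.7 of the cells (43.3%, 62.0% and 78.8%). It was lower in 5 of 6 mice by share and in 6 of 6 by summed counts, with a log2 fold change of −0.60 (SE 0.17, unadjusted p = 0.00636, adjusted p = 1.0 with edgeR). *Cyp2d22*, a cytochrome P450, and *Zc3h7a*, a zinc finger protein, were lower in 6 of 6 mice by 10.5 and 10.3 points. *Pdcd4*, an inhibitor of translation initiation, *Pdxdc1*, *Zmym5* and the proton pump subunit *Atp6v1a* differed by −11.7, −10.4, −11.2 and −10.3 points and, with *Ndufc2*, were also among the 10 largest. In the matched cells *Pdxdc1* differed by −19.4 points.

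By summed counts, the 10 genes with the smallest p in each direction, read in at least 20% of all cells and moving one way in all mice, all had an adjusted p of 1.0 with edgeR. The higher ones were led by *Dctn4*, a dynactin subunit, with a median of 124 CPM (85.5 to 215) in cells with and 57.0 CPM (10.9 to 80.2) in cells without *Myod1* reads. Its groups did not overlap between mice, and the log2 fold change was 1.60 (SE 0.41, unadjusted p = 0.00363; adjusted p = 0.0189 with DESeq2). After it came *Aig1* (1.12), the tyrosyl-tRNA synthetase *Yars* (1.16), *Abhd2* (0.56), *Uap1* of hexosamine synthesis (0.76) and *Cnbp* (0.41). *Eif4ebp1*, a repressor of cap-dependent translation under mTOR (1.23), *Baiap2* (1.15), *Ppme1* (1.03) and the amino acid transporter *Slc38a2* (0.32) completed them. By share in the matched cells, *Yars* went the other way (−7.69 points, lower in 5 of 6 mice). The other higher genes kept a positive mean difference there, with *Dctn4* at 5.95 points and higher in 3 of 6 mice. The lower ones were led by *Araf*, a kinase of the Raf family, with 66.7 CPM (29.3 to 182) against 239 CPM (140 to 318) and a log2 fold change of −1.81 (SE 0.43, unadjusted p = 0.00224; adjusted p = 0.00618 with DESeq2). *Clcn4-2* (−1.16), the circadian factor *Clock* (−1.88), *Sertad1*, the deubiquitinase *Usp9x* (−0.59) and the extracellular superoxide dismutase *Sod3* (−0.87) followed. *Junb*, the G protein subunit *Gna11* (−1.39), *Hsd17b12* (−1.85) and *Rnf19a* (−1.06) were the rest. *Baiap2*, *Abhd2* and *Sertad1* were the genes on both the list by share and the list by summed counts.

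The contrast was also compared between ages. With an interaction term, edgeR called 0 of 9817 genes (0.0%) as different between 4 young and 2 old mice in the effect of carrying *Myod1* reads, with 465 (4.74%) at an unadjusted p under 0.05, and DESeq2 called 341 (3.47%). For *Ccnd1* the log2 fold change was 0.92 in young and 1.63 in old mice, for *Flnc* 0.52 and 0.38, for *Sertad1* −0.51 and −0.79, for *Pax7* −0.29 and −0.39, and for *Myf5* −0.23 and −1.43, and the difference between ages had an adjusted p of 1.0 with edgeR for each of them. In the old mouse O5, *Ccnd1* was read in few cells of either group, and its share was lower in the cells with *Myod1* reads. The difference in genes detected per cell averaged 142 in young and 49.8 in old mice. Sequencing lane cannot be told apart from age in full, because 3 young mice (Y4, Y5 and Y8) were run on lane 3, whereas lane 2 held 1 young mouse (Y7) beside O1 and O5. Within each lane alone, edgeR on the summed counts and limma on the shares called 0 genes between cells with and without *Myod1* reads.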

How the data were processed

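Raw counts per gene and cell, without normalization, were deposited by the authors, who had trimmed the reads, mapped them with HiSat2 (GRCm38) and counted them in SeqMonk. Which gene annotation was counted, and whether strand was used, are not given in the sources used here, so counts of overlapping or near-identical genes are uncertain. Only the RNA table (25952 genes, 377 cells) was used; its zeros are reported as no read. The groups, members and gene lists were chosen with earlier results of these data known. Cells were grouped by *Myod1* reads, *Myod1* was then removed, and counts were summed per mouse and group (3984120 to 13894063 reads). Summed counts were compared with edgeR 4.0.16 (TMM, quasi-likelihood, mouse as block), with DESeq2 1.42.0 and limma 3.58.1 (R 4.3.3) as alternatives; genes passed edgeR's default filter on low counts. Shares of cells used cells thinned to 100000 reads and genes read in at least 10% of the thinned cells. Measures with 1 value per mouse used an exact sign-flip test over 64 sign patterns. Mice are separate animals; cells of a mouse are not independent. Intervals for counts of 0 cover counting error only. Gene ends and exon lengths come from GENCODE M21. Named genes were members of the lists, up to 10 genes per direction by summed counts (past the threshold, or else the smallest p, at least 20% of cells and 1 direction in all mice) and up to 10 per direction by share; some of these are not reported here. The scripts were tested on simulated data. There edgeR recovered the changed genes at a low spread between replicates but not at the median spread over all genes tested. Limma on shares recovered large differences only.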

Additional observations from a re-analysis of the deposited data

Results flagged for a closer look

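For 5 genes, the difference in share of cells (with minus without *Myod1* reads) in 1 mouse lay apart from that in the other 5 by Dixon's 95% criterion, in 56 sets of values examined; chance gives about 1 in 20. *Megf10*, a receptor of muscle stem cells, differed by 15.6 points in O1, against a median of 3.99 over the mice. In Y5, *Id3* differed by 25.6 points and *Junb* by 23.5 points, whereas their medians were −7.44 and −6.27 points. *Sod3* differed by −23.5 points in O5 (median −0.536), and *Pdxdc1* by 8.21 points in Y8 (median −12.9). Y5 had the fewest cells with *Myod1* reads, 18.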

How the results depend on the processing

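edgeR called 0 genes between the groups under all its alternatives (DESeq2 size factors, no filter, no pairing by mouse, thinned cells, groups from thinned cells, at least 10 or 100 *Myod1* reads, matched cells, young mice only, each lane, each mouse left out), and so did limma on the shares. DESeq2 called 130, and 341 for the age difference. Limma on mean log2 RPM called 1, again 1 in thinned cells, 0 in matched cells, in young mice only, at 100 reads and without pairing, and 0 to 2 with a mouse left out (*Asb5*, with *Flnc* as the second without O5). The rules with at least 100 reads, the second choices with limma and the matched cells for genes detected were chosen after seeing the data. The difference in log2 reads per cell changed sign to −0.000833 at 10 reads and ran from −0.0312 to 0.0511 with a mouse left out. That in genes detected per cell ran from 58.5 to 162 with a mouse left out, was 5.67 in matched cells by construction, and kept its sign. That in the cell-to-cell correlation was 0.0131 (p = 0.03125) with 1 list of genes, and 0.00608 to 0.0132 with a mouse left out; the cause was not tested. Of 51 named genes, 38 kept the sign of their summed difference in every alternative and 35 of 51 that of their share; *Pax7* and *Myf5* changed sign by share. The median edgeR adjusted p of the genes called by DESeq2 was 1.0, and a count of 0 from edgeR or from limma on the shares does not show that the groups are alike, given the width of the intervals with 6 mice.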
